A study of Mus musculus with 21 samples.

Results

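The 7 genes described here encode the cyclin-dependent kinase (CDK) inhibitors of the mouse: Cdkn1a, Cdkn1b and Cdkn1c of the Cip/Kip family, and Cdkn2a, Cdkn2b, Cdkn2c and Cdkn2d of the INK4 family. They were taken as a family by gene symbol, and all 7 were found in both deposited tables, which hold 27968 genes for sorted cells and 22899 genes for coculture. The study drove mouse pluripotent stem cells (PSCs) toward blood in a 3D self-assembling peptide and then cocultured the colonies on OP9 cells, a mouse bone marrow stromal line treated with mitomycin C so that it no longer divides. RNA-seq was performed on 21 libraries, 3 for each of 7 groups.

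The coculture table held total cells of cultures derived from 129/ola PSCs on day 5, in medium with SCF, IL-3 and Flt3 ligand. The cultures were either on OP9 cells (3D+OP9) or on a gelatin coating without stroma (3D+0.1% gelatin). The study's methods do not say whether OP9 cells were removed before RNA of the total cells was taken, so the 3D+OP9 libraries may hold OP9 RNA. The sorted-cell table held 5 groups. The mESC group was 129/ola stem cells kept on mouse embryonic fibroblasts and sorted for SSEA-1. The D5-LSKCD201+ and D5-LSKCD201- groups were sorted from 3D+OP9 coculture on day 5 as Lin-Sca-1+c-kit+ (LSK) cells with or without CD201, the endothelial protein C receptor encoded by Procr. The FL-LSKCD201+ group came from C57BL/6 fetal liver at E12.5 and the BM-LSKCD201+ group from bone marrow of C57BL/6 mice aged 6 to 8 weeks. By the labels, all PSC-derived cells were of one strain and all cells taken from animals of another, so that strain and origin cannot be told apart. The study also kept stem cells of C57BL/6 origin, but the labels give 129/ola for every PSC-derived library. The study calls the libraries of each sorted-cell group biological replicates, and the labels do not say how many animals, embryos or cultures they came from. The p-values measure the spread between these libraries.

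CDK inhibitors hold back the kinases that carry a cell from G1 into S phase. The Cip/Kip proteins p21 (Cdkn1a), p27 (Cdkn1b) and p57 (Cdkn1c) bind complexes of cyclins with CDK2, CDK4 or CDK6, whereas the INK4 proteins p16 (Cdkn2a), p15 (Cdkn2b), p18 (Cdkn2c) and p19 (Cdkn2d) bind CDK4 and CDK6 alone. Cdkn2a also encodes p19Arf, an activator of p53, from another first exon. In blood formation the family is best known for p57 and p27, which keep adult hematopoietic stem cells out of cycle.

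Values are FPKM, read fragments scaled by transcript length and library size, and so can be compared between genes of one table. FPKM plus 1 was taken to log2, and a gene entered the limma test of a comparison when its 6 libraries averaged 0.5 FPKM or more, with Benjamini-Hochberg adjustment over all genes tested. A gene is said to have risen or fallen when its adjusted p was under 0.05 and its log2 fold change at least 1 in size. The smallest two-sided p of an exact permutation test of 3 libraries against 3 is 0.1. The sequencing depth is unknown. Groups whose libraries did not overlap were common, at 63.5% to 87.8% of all genes tested in the comparisons of sorted cells.

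The labels were checked against marker genes. D5-LSKCD201+ cells held 59.7 ± 2.03 FPKM of Procr (SD, n = 3) and D5-LSKCD201- cells 3.48 ± 0.411. The summed FPKM of 6 pluripotency genes was 3198 to 3662 in D5-LSKCD201- cells and 20.7 to 28.1 in D5-LSKCD201+ cells, against 5696 to 6216 in mESC. The summed FPKM of 8 hematopoietic genes was 48.7 to 52.98 in D5-LSKCD201+ cells, far below the 1469 to 1786 of FL-LSKCD201+ and the 2015 to 2240 of BM-LSKCD201+ cells, and the leukocyte gene Ptprc was at 0.409 ± 0.167 FPKM there. This hematopoietic sum was 29.1 to 31.7 in D5-LSKCD201- cells and 26.3 to 28.0 in mESC. The summed FPKM of 7 endothelial genes was 1283 to 1327 in D5-LSKCD201+ cells, 62.2 to 63.1 in D5-LSKCD201- cells and 18.6 to 200.4 in the other 3 groups. Replicate 1 of FL-LSKCD201+ stood apart from its group (correlation across genes of 0.974 and 0.976 with replicates 2 and 3, against 0.997 between those), and so, less far, did replicate 2 of D5-LSKCD201- and replicate 1 of BM-LSKCD201+. In coculture, replicate 3 of 3D+OP9 stood apart (0.977 and 0.976, against 0.996).

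Cdkn1c (ENSMUSG00000037664, chr7:143458339-143461050 of GRCm38, minus strand) was the member with the widest range in FPKM. It was at 883, 878 and 884 FPKM in the 3 D5-LSKCD201+ libraries. It was at 46.2, 51.9 and 49.3 FPKM in D5-LSKCD201- cells, also sorted from 3D+OP9 coculture. The 3 positive libraries lay close together and far above every other sorted library. Cdkn1c was at 86.7, 94.6 and 96.5 FPKM in FL-LSKCD201+, at 56.9, 54.7 and 55.7 in BM-LSKCD201+ and at 87.2, 81.7 and 86.6 in mESC. The order was thus D5-LSKCD201+, FL-LSKCD201+, mESC, BM-LSKCD201+ and D5-LSKCD201-, and FL-LSKCD201+ and mESC overlapped.

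Cdkn1c rose in D5-LSKCD201+ cells against each of the other 4 groups. The ratio of mean FPKM was 17.9 against D5-LSKCD201- cells (log2 fold change 4.14 ± 0.05 SE, limma adjusted p = 3.3e-08), and 46 of the 13691 genes tested had a larger increase. It was 10.3 against mESC (3.36 ± 0.03, adjusted p = 7.5e-12), 9.52 against FL-LSKCD201+ (3.24 ± 0.08, adjusted p = 1.2e-07) and 15.8 against BM-LSKCD201+ cells (3.96 ± 0.04, adjusted p = 9.5e-10). These comparisons share the D5-LSKCD201+ libraries. In bulk cells, more cells that express a gene and more RNA per cell cannot be told apart. The endothelial and pluripotency genes moved between the 2 day 5 populations as well, with the sums given above. The summed FPKM of 10 stromal or fibroblast genes was 94.6 to 100.4 in D5-LSKCD201+ cells, 39.5 to 73.8 in D5-LSKCD201- cells, 12.4 to 15.4 in FL-LSKCD201+, 8.24 to 9.72 in mESC and 7.06 to 7.89 in BM-LSKCD201+ cells, where Lum was listed at 0. Of these genes, 2 of 9 tested rose and 1 fell in D5-LSKCD201+ against D5-LSKCD201- cells (24.7% of all genes passed both thresholds), and of 8 tested 7 rose against mESC (37.6%), 6 against FL-LSKCD201+ (34.7%) and 7 against BM-LSKCD201+ (44.7%), with none falling. The part of these 3 gene groups in the differences of Cdkn1c was not tested.

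Among the 27968 genes of each library, Cdkn1c ranked between 57th and 60th by FPKM in D5-LSKCD201+ cells. In the other 4 groups it ranked between 1146th and 2317th. The remaining differences of Cdkn1c stayed below the fold threshold: -0.78 for D5-LSKCD201- against mESC (adjusted p = 5.1e-05), 0.72 for FL-LSKCD201+ against BM-LSKCD201+ (adjusted p = 0.00032), 0.12 for FL-LSKCD201+ against mESC (adjusted p = 0.19), -0.60 for BM-LSKCD201+ against mESC (adjusted p = 9.5e-06), -0.90 for D5-LSKCD201- against FL-LSKCD201+ (adjusted p = 0.00012) and -0.18 for D5-LSKCD201- against BM-LSKCD201+ (adjusted p = 0.04998). A gene of unknown function, Gm44732, is annotated on the opposite strand within Cdkn1c with 4.38 ± 0.495 FPKM in D5-LSKCD201+ cells and means of 0.420 to 0.771 elsewhere. Whether strand was used in counting is not given in the sources used here, so reads of the overlap cannot be told apart.

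**Figure D1:**
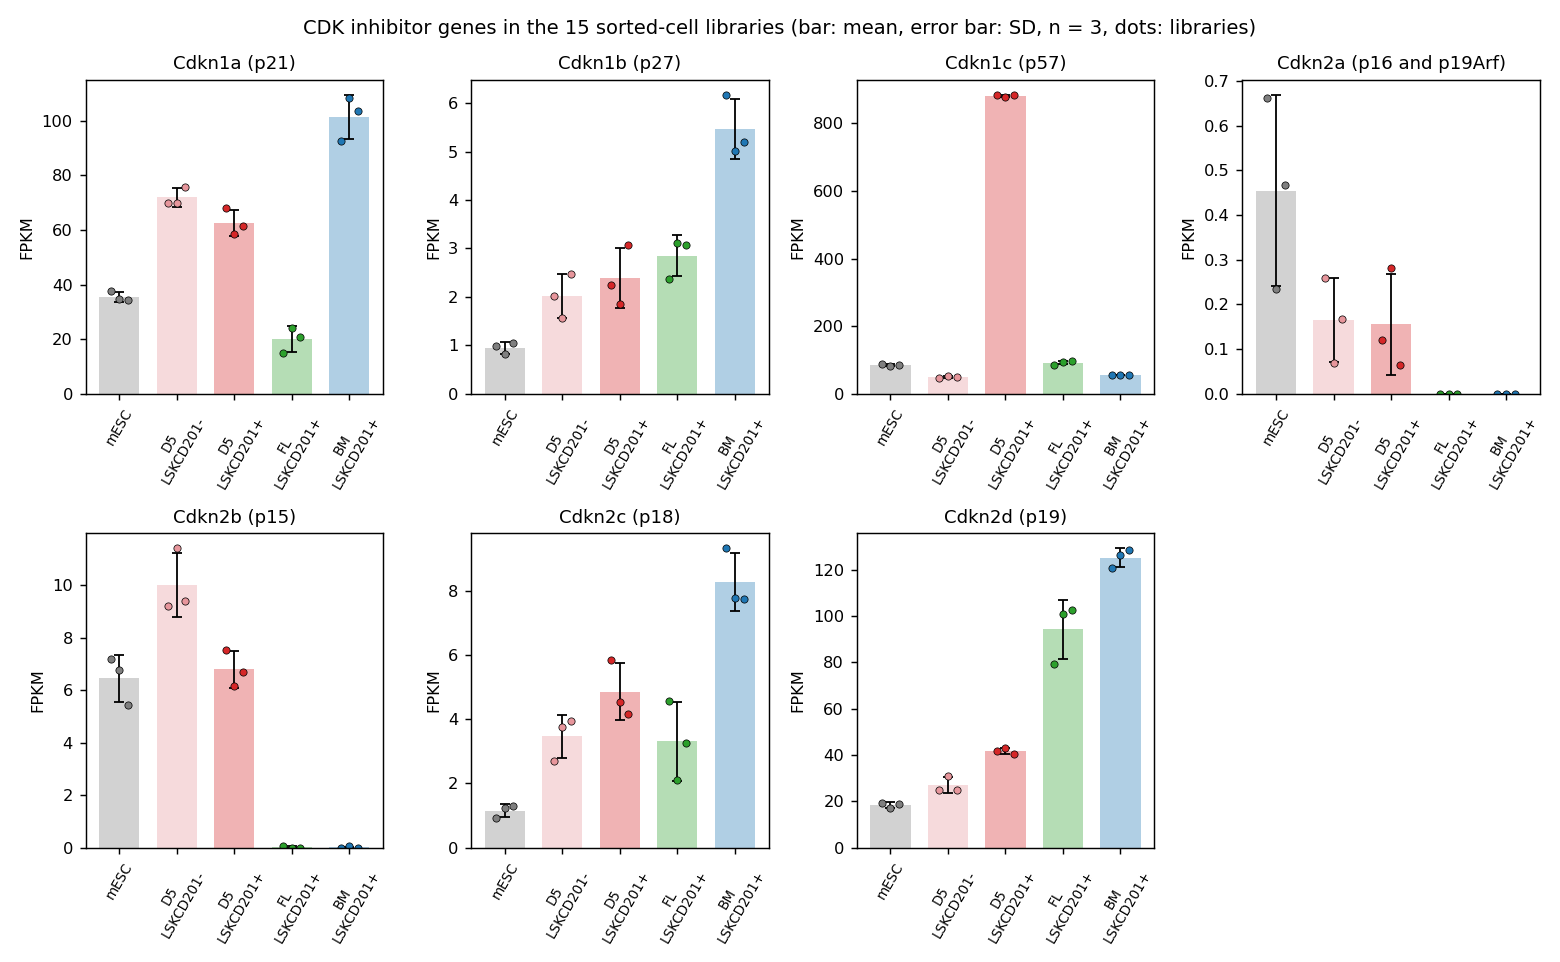
FPKM (vertical axis, linear, own scale for each gene) of the 7 CDK inhibitor genes in the 5 sorted-cell groups (horizontal axis), with bars for the mean, error bars for the SD of 3 libraries and dots for single libraries. Cdkn1c stands near 882 FPKM in D5-LSKCD201+ cells, Cdkn2d and Cdkn1a are highest in BM-LSKCD201+ cells, and Cdkn2b is near 0 in both groups from animals.

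The 3 Cip/Kip genes share a short stretch of coding sequence around the cyclin-binding motif of their proteins, shown here because it is what unites the family at the level of DNA. In the best window of 60 bases without gaps, 29 positions were identical in all 3 genes (capitals). Sequences are from GENCODE M21 transcripts on GRCm38, at chr17:29098456-29098515 (plus strand, exon 2 of Cdkn1a-201), chr6:134921004-134921063 (plus strand, exon 1 of Cdkn1b-201) and chr7:143460555-143460614 (minus strand, exon 2 of Cdkn1c-202).
Cdkn1a: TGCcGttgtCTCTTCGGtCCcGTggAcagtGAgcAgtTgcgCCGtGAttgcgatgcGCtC
Cdkn1b: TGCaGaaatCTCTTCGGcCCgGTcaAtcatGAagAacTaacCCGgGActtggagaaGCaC
Cdkn1c: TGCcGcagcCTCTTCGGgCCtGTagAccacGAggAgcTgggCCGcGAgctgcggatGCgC
No pair of the 7 genes shared an identical run of more than 23 bases in any annotated transcript, which is short beside the 150-base reads.

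Cdkn1c lies in an imprinted region of chromosome 7, where it is expressed mainly from the maternal allele. The list for this region held 18 genes, of which 16 were tested between the day 5 populations; 7 of them rose in D5-LSKCD201+ cells, Cdkn1c included, and 2 fell, where 24.7% of all genes tested passed both thresholds. Their median log2 fold change was 0.36, beside -0.12 over all genes tested. Igf2, the imprinted growth factor, had 1676 ± 22.4 FPKM in the positive against 114 ± 18.4 in the negative population (log2 fold change 3.88 ± 0.11, limma adjusted p = 2.8e-07). H19, a non-coding RNA gene next to Igf2, was at 9.71 ± 0.545 and 0.940 ± 0.299 FPKM (2.48 ± 0.13). The tetraspanin gene Cd81 rose by 1.19 on the log2 scale and the decoy receptor genes Tnfrsf23 and Tnfrsf26 by 2.26 and 1.91. The channel gene Kcnq1 had 5.77, 4.11 and 3.09 FPKM in the D5-LSKCD201+ libraries and no more than 0.243 in the other 12 sorted libraries. Kcnq1 rose by 2.18 and is among the 7 counted. It entered the test through the D5-LSKCD201+ libraries alone, so its call adds nothing to these levels. Its antisense transcript Kcnq1ot1 lies within it, and without strand their reads cannot be told apart.

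The 2 genes of the region that fell were Phlda2 and Ascl2. Phlda2, an imprinted gene that limits growth of the placenta, had 1.69 ± 0.486 FPKM in the positive against 24.8 ± 3.48 in the negative population, and fell by 3.27 on the log2 scale. Ascl2, a transcription factor gene of the trophoblast, had 0.310 ± 0.163 FPKM in the positive against 11.2 ± 0.581 in the negative population. It fell by 3.23 and is among the 2 counted. Ascl2 entered the test through the D5-LSKCD201- libraries alone, so its call adds nothing to these levels.

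Over the other groups these genes followed different orders. Igf2 was at 43.3 ± 6.84 FPKM in FL-LSKCD201+, 1.78 ± 1.05 in BM-LSKCD201+ and 3.12 ± 0.521 in mESC, where Cdkn1c was at 92.6 ± 5.18, 55.8 ± 1.12 and 85.2 ± 3.02. H19 was highest in FL-LSKCD201+ cells, at 42.8, 82.7 and 81.1 FPKM, and fell by 2.65 on the log2 scale in D5-LSKCD201+ against FL-LSKCD201+ cells. Phlda2 was highest in mESC, at 162 ± 3.28 FPKM.

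**Figure D2:**
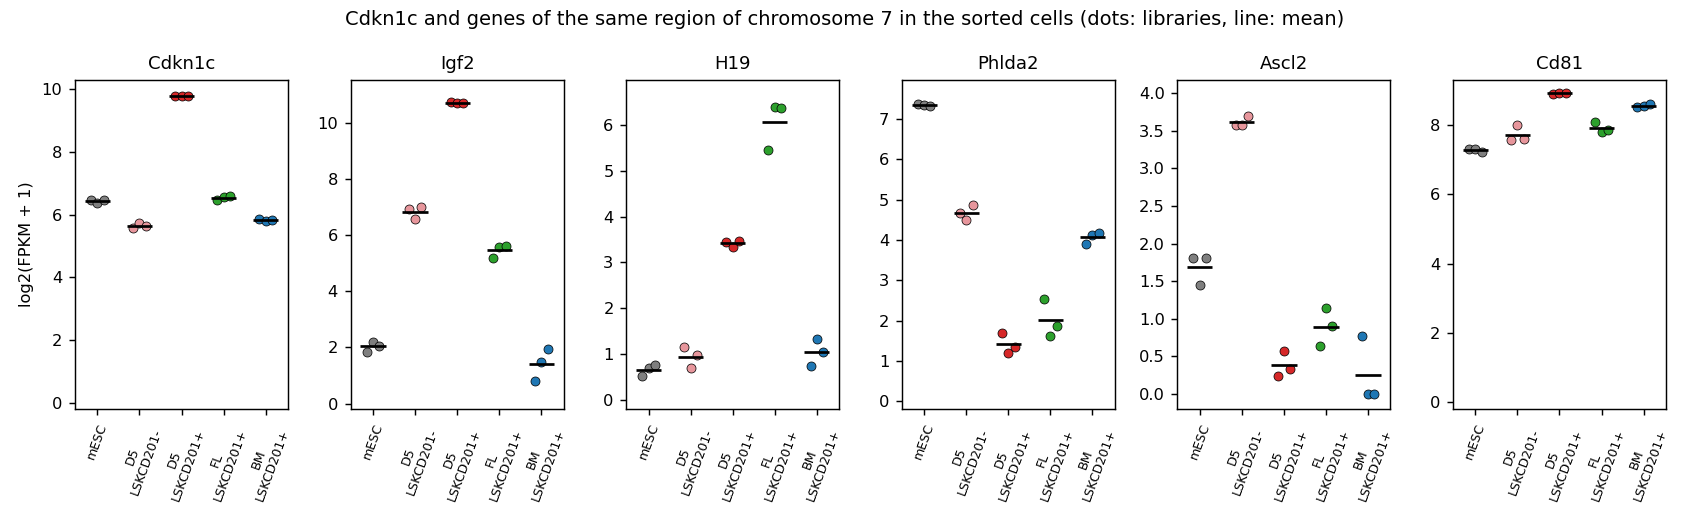
Level as log2(FPKM + 1) (vertical axis, own scale for each gene) of Cdkn1c and 5 genes of the same imprinted region in the 15 sorted-cell libraries, with dots for libraries and lines for means of 3. Cdkn1c, Igf2 and Cd81 are highest in D5-LSKCD201+ cells, H19 in FL-LSKCD201+, Phlda2 in mESC and Ascl2 in D5-LSKCD201- cells.

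Among 12923 other genes averaging 1 FPKM or more, those whose log2 values followed Cdkn1c most closely over the 15 sorted-cell libraries included Lyve1, Prex2, Xkr8, Vps4a, Bcl6b, Babam1 and Ptprb, with Pearson r from 0.971 to 0.980. Lyve1, a hyaluronan receptor gene, was at a mean of 7.91 FPKM in D5-LSKCD201+ cells and at 0.435 or less in the other groups. Bcl6b, a transcriptional repressor gene, was at 42.3 in D5-LSKCD201+ cells and at 1.20 to 2.49 elsewhere. Ptprb, the endothelial phosphatase gene, was at 4.79 and at 0.252 or less. The 3 libraries of a group are not independent points, so that r describes mainly the 1 group that stands apart, and the choice of genes most like each member depended on the measure used.

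Cdkn1a (chr17:29090979-29100722, plus strand), the gene of p21 and a standard target of p53, followed another order. It was at 92.5, 108 and 104 FPKM in BM-LSKCD201+ and at 15.1, 24.3 and 20.9 in FL-LSKCD201+ cells. The day 5 populations lay between, with 68.0, 58.5 and 61.5 for the positive one, 69.8, 70.1 and 75.8 for the negative one, and mESC were at 37.5, 34.6 and 34.3. No neighbouring groups in this order overlapped, but each step alone was below the fold threshold, from 0.20 (D5-LSKCD201- over D5-LSKCD201+, limma adjusted p = 0.042) to 0.81 (mESC over FL-LSKCD201+, adjusted p = 0.0027). Across wider steps, Cdkn1a fell in FL-LSKCD201+ against BM-LSKCD201+ (-2.30 ± 0.17, adjusted p = 4.0e-05) and rose in D5-LSKCD201+ against FL-LSKCD201+ (1.61 ± 0.17, adjusted p = 0.00012), in D5-LSKCD201- against FL-LSKCD201+ (1.81 ± 0.17, adjusted p = 5.9e-05) and in BM-LSKCD201+ against mESC (1.49 ± 0.07, adjusted p = 4.6e-07).

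Of 20 other p53 target genes, 19 were tested between FL-LSKCD201+ and BM-LSKCD201+ cells. None rose and 4 fell in FL-LSKCD201+, near the 19.1% of all genes tested that passed both thresholds: the kinase gene Plk3 (-2.03), the antiproliferative gene Btg2 (-1.64), the apoptosis gene Bbc3 (-1.04) and Rrm2b (-1.01), a subunit of ribonucleotide reductase. Bbc3 and Rrm2b came under the fold threshold with quantile normalization (-0.96 and -0.86) and without FL-LSKCD201+ replicate 2 (-0.96 and -0.97). Bbc3 also did so without FL-LSKCD201+ replicate 3 (-0.9996), and Rrm2b without FL-LSKCD201+ replicate 1 (-0.95) or BM-LSKCD201+ replicate 1 (-0.90). The list's median was -0.50, beside -0.13 over all genes tested. In D5-LSKCD201+ against FL-LSKCD201+ cells, where Cdkn1a also moved, 8 rose and 2 fell (34.7% of all genes), with Plk2 (3.07), Phlda3 (2.15) and Eda2r (2.14) as the largest increases and Sesn1 (-3.02) as the largest decrease. In D5-LSKCD201+ against D5-LSKCD201- cells, where Cdkn1a moved by -0.20, 1 rose and 4 fell, near the 24.7% of all genes: Plk2 (3.04) rose, and Pmaip1 (-3.22), Perp (-3.21), Gadd45a (-1.40) and Sesn2 (-1.01) fell. Sesn2 was under the fold threshold without D5-LSKCD201+ replicate 1 (-0.99) and without D5-LSKCD201- replicate 1 (-0.94) or replicate 3 (-0.95).

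The window of 300 bases around the upstream start site of Cdkn1a (RefSeq, GRCm38.p6) held CATG, any 6 bases and CATG again, a core of the p53 response element, from 48 to 35 bases before the start. The motif is its own reverse complement in form, so that both strands are searched at once, and 0.712% of 32851 promoter windows of this length held it. The stretch around it, at chr17:29090908-29090967 on the plus strand, is shown with the match in capitals.
Cdkn1a upstream start: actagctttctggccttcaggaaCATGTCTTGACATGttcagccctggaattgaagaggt
No other window of the 7 genes held these letters, and none was given for Cdkn1c. Of 4 other motifs searched on both strands, CACGTG (7.15% of all windows) was found for 1 window of Cdkn2c and TATAAA (13.6%) for none. CCAAT (37.4% of all windows) and GGGCGG (35.7%) were found for 4 and 6 of the genes. Some genes have more than 1 window, so these counts of genes cannot be compared with shares of windows. A match is a description of the letters only.

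Bhlhe40, a circadian and stress-related repressor gene, Mical1 and Dnmbp followed Cdkn1a most closely over the 15 libraries, with Pearson r of 0.970, 0.964 and 0.942. Bhlhe40 was at a mean of 45.1 FPKM in BM-LSKCD201+ and 1.75 in FL-LSKCD201+ cells.

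Cdkn1b (chr6:134920401-134925513, plus strand), the gene of p27, was low in all sorted cells. It was at 6.17, 5.01 and 5.20 FPKM in BM-LSKCD201+ and at 0.984, 0.818 and 1.05 in mESC. The other 3 groups overlapped each other, with 2.02, 1.56 and 2.48 in D5-LSKCD201- cells, 2.36, 3.12 and 3.06 in FL-LSKCD201+ cells, and 2.24, 1.86 and 3.07 in D5-LSKCD201+ cells. Cdkn1b rose in BM-LSKCD201+ against mESC (1.73 ± 0.10, limma adjusted p = 1.5e-06) and fell in D5-LSKCD201- against BM-LSKCD201+ cells (-1.10 ± 0.15, adjusted p = 0.00028). The latter was -0.91 after quantile normalization and -0.99 without D5-LSKCD201- replicate 2, both under the fold threshold. The difference of D5-LSKCD201+ from BM-LSKCD201+ was -0.94 ± 0.15 (adjusted p = 0.00056). The genes that followed Cdkn1b most closely were Scmh1, a Polycomb group gene, Hyi and Akr1c13, with r of 0.966 to 0.968.

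Cdkn2a and Cdkn2b lie 11636 bases apart on chromosome 4, at chr4:89274471-89294653 and chr4:89306289-89311032, both on the minus strand. The p16 and p19Arf transcripts of Cdkn2a share an exon, and the FPKM of the gene does not separate them.

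Cdkn2b, the gene of p15, divided the PSC-derived cells from those taken from animals. It was at 7.17, 6.75 and 5.44 FPKM in mESC. D5-LSKCD201+ libraries had 7.53, 6.15 and 6.68 FPKM, and D5-LSKCD201- libraries 9.20, 11.4 and 9.40. It was listed at 0.0551, 0 and 0 in FL-LSKCD201+ and at 0, 0.0434 and 0 in BM-LSKCD201+ cells. Cdkn2b rose in each PSC-derived group against each group from animals, by 2.93 to 3.43 in day 5 cells on the log2(FPKM + 1) scale, and fell by 2.87 in both FL-LSKCD201+ and BM-LSKCD201+ against mESC (limma adjusted p from 9.7e-08 to 6.0e-07 in these 6 comparisons). Cdkn2b entered these 6 tests through the PSC-derived groups alone, so the p-values add nothing to the levels above. Between FL-LSKCD201+ and BM-LSKCD201+ it was not tested. On this scale the pseudocount sets how far a gene near 0 can fall. Over the alternatives the difference reached 5.93 for D5-LSKCD201+ and 6.48 for D5-LSKCD201- against BM-LSKCD201+, and -5.85 for BM-LSKCD201+ against mESC. Between the day 5 populations Cdkn2b differed by -0.50 ± 0.11 (adjusted p = 0.0065), with no overlap of libraries, and D5-LSKCD201+ and mESC overlapped.

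Cdkn2a was at 0.663, 0.234 and 0.468 FPKM in mESC and at 0.0644 to 0.283 in the 6 day 5 libraries. It was listed at 0 in all 6 libraries of FL-LSKCD201+ and BM-LSKCD201+ cells. Its mean was under 0.5 FPKM in every comparison of sorted cells, so it was not tested there. Of the 3 neighbouring genes, the housekeeping gene Mtap was at means of 28.5 to 46.6 FPKM in all 5 groups. Elavl2, a neuronal RNA-binding protein gene, was at 7.64 ± 0.537 in mESC, 5.68 ± 0.380 in D5-LSKCD201- and 0.199 or less in the other groups. It fell by 2.48 on the log2 scale in D5-LSKCD201+ against D5-LSKCD201- cells. Elavl2 entered this test through the D5-LSKCD201- libraries alone, so its call adds nothing to these levels, and the pseudocount bounds the fall. Dmrta1 was at a mean of 0.81 FPKM or less in each group. The genes that followed Cdkn2b most closely were Fxyd6, Mrpl48-ps and Tubb2b, with r of 0.994 to 0.995.

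Cdkn2d (chr9:21288410-21291407, minus strand), the gene of p19, was the most abundant INK4 gene in every sorted-cell group. It was at 121, 127 and 128 FPKM in BM-LSKCD201+ and at 79.5, 101 and 102 in FL-LSKCD201+ cells. It was lowest in mESC, at 19.4, 17.1 and 18.7 FPKM. D5-LSKCD201+ libraries had 41.7, 42.9 and 40.6 FPKM, above the 24.9, 30.8 and 24.8 of D5-LSKCD201- libraries. No neighbouring groups overlapped in this order. The step from FL-LSKCD201+ down to D5-LSKCD201+ passed both thresholds (log2 fold change 1.15 ± 0.11, limma adjusted p = 7.9e-05), and the other 3 neighbouring steps were 0.42, 0.62 and 0.52 with adjusted p of 0.019, 0.00075 and 0.0040. Against BM-LSKCD201+ cells, Cdkn2d fell by 1.56 in the positive and by 2.19 in the negative day 5 population. It rose by 1.14 in D5-LSKCD201+, by 2.29 in FL-LSKCD201+ and by 2.70 in BM-LSKCD201+ cells against mESC. Gng10, Alox5ap and Sirt7 followed it most closely, with r of 0.994 to 0.995, and Alox5ap, a leukotriene synthesis gene, was at a mean of 327 FPKM in BM-LSKCD201+ and 3.47 in mESC.

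Cdkn2c (chr4:109660876-109667189, minus strand), the gene of p18, was at 9.33, 7.77 and 7.75 FPKM in BM-LSKCD201+ and at 0.918, 1.24 and 1.296 in mESC. D5-LSKCD201+ libraries had 5.86, 4.55 and 4.17 FPKM and D5-LSKCD201- libraries 2.71, 3.75 and 3.94. FL-LSKCD201+ libraries, at 4.58, 2.10 and 3.25, had the widest spread and overlapped both day 5 groups. Cdkn2c rose against mESC in BM-LSKCD201+ (2.11 ± 0.11, limma adjusted p = 7.9e-07), in D5-LSKCD201+ (1.44 ± 0.12, adjusted p = 3.8e-06) and in D5-LSKCD201- cells (1.05 ± 0.14, adjusted p = 0.00071). It fell against BM-LSKCD201+ in FL-LSKCD201+ (-1.14 ± 0.22, adjusted p = 0.0033) and D5-LSKCD201- cells (-1.06 ± 0.15, adjusted p = 0.00034). The fall in FL-LSKCD201+ was -0.97 after quantile normalization and -0.93 without FL-LSKCD201+ replicate 2, and the rise in D5-LSKCD201- was 0.79 after quantile normalization and 0.97 without D5-LSKCD201- replicate 3 or without mESC replicate 1, all under the fold threshold. The fall in D5-LSKCD201- cells was -0.79 after quantile normalization, -0.93 without D5-LSKCD201- replicate 1 and -0.98 without BM-LSKCD201+ replicate 1. Csnk1d, Taf9b and Mcfd2 followed it most closely, with r of 0.956 to 0.958.

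The FPKM of the 7 genes summed to 1000 ± 8.02 in D5-LSKCD201+, 296 ± 9.13 in BM-LSKCD201+, 213 ± 21.5 in FL-LSKCD201+, 164 ± 7.51 in D5-LSKCD201- and 148 ± 5.67 in mESC. Cdkn1c made up 88.2% ± 0.509 of the sum in D5-LSKCD201+ cells. Its share was 57.5% ± 0.966 in mESC, 43.6% ± 2.15 in FL-LSKCD201+, 30.0% ± 0.488 in D5-LSKCD201- and 18.8% ± 0.955 in BM-LSKCD201+ cells. The leading gene thus differed between groups. Cdkn2d led in BM-LSKCD201+ (42.3% ± 0.409) and, beside Cdkn1c, in FL-LSKCD201+ cells (44.1% ± 1.67), and Cdkn1a in D5-LSKCD201- cells (44.0% ± 2.35). Without Cdkn1c, the sums of D5-LSKCD201+, D5-LSKCD201- and FL-LSKCD201+ cells overlapped, at 119 ± 5.99, 114 ± 4.81 and 121 ± 16.4 FPKM. The ratio of Cdkn1c to Cdkn1a was 14.1 ± 1.03 in the positive day 5 population against 0.684 ± 0.0491 in the negative one.

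**Figure D3:**
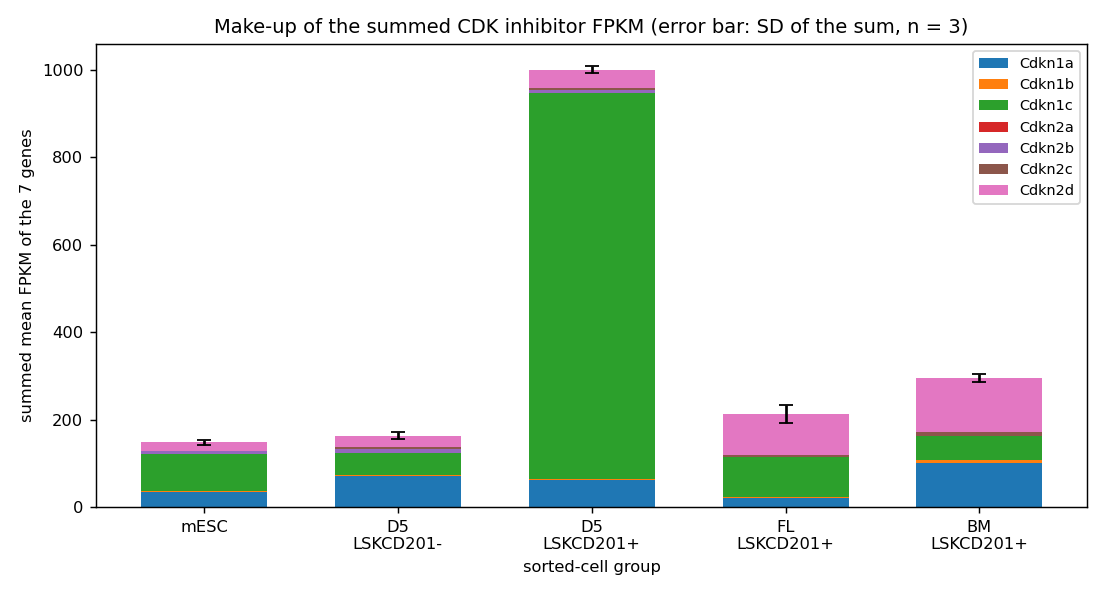
Summed mean FPKM (vertical axis) of the 7 CDK inhibitor genes in the 5 sorted-cell groups (horizontal axis), with a colour for each gene and error bars for the SD of the sum over 3 libraries. Cdkn1c fills 88.2% of the bar of D5-LSKCD201+ cells, and Cdkn2d and Cdkn1a fill most of that of BM-LSKCD201+ cells.

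The members were then counted in each comparison of sorted cells. Between D5-LSKCD201+ and D5-LSKCD201- cells, 1 of 6 members tested rose (Cdkn1c) and none fell, where 24.7% of all genes tested passed both thresholds. Against mESC, 3 of 6 rose in D5-LSKCD201+ (37.6% of all genes) and 1 of 6 in D5-LSKCD201- cells (14.3%). Also against mESC, 1 of 6 rose and 1 fell in FL-LSKCD201+ (42.3%), and 4 of 6 rose and 1 fell in BM-LSKCD201+ cells (53.1%).

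Against FL-LSKCD201+, 3 of 6 members rose and 1 fell in D5-LSKCD201+ (34.7% of all genes), and 2 rose and 1 fell in D5-LSKCD201- cells (37.3%). Against BM-LSKCD201+, 2 of 6 rose and 1 fell in D5-LSKCD201+ (44.7%), and 1 rose and 3 fell in D5-LSKCD201- cells (49.3%). Between FL-LSKCD201+ and BM-LSKCD201+, 2 of 5 members tested fell and none rose (19.1%). The comparisons share groups and are not independent of each other. Cdkn2b is counted wherever a PSC-derived group met a group from animals, though it entered those tests through the PSC-derived group alone.

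The median log2 fold change of the members tested was 0.28 in D5-LSKCD201+ against D5-LSKCD201- cells, beside -0.12 over all genes tested. Against mESC it was 0.97 in D5-LSKCD201+, 0.59 in D5-LSKCD201-, 0.54 in FL-LSKCD201+ and 1.61 in BM-LSKCD201+ cells, beside -0.07, 0.05, 0.10 and 0.23 over all genes. Against FL-LSKCD201+ it was 1.04 in D5-LSKCD201+ and -0.14 in D5-LSKCD201- cells, beside -0.16 and -0.02. Against BM-LSKCD201+ it was -0.68 in D5-LSKCD201+, -0.78 in D5-LSKCD201- and -0.75 in FL-LSKCD201+ cells, beside -0.23, -0.11 and -0.13.

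**Figure D4:**
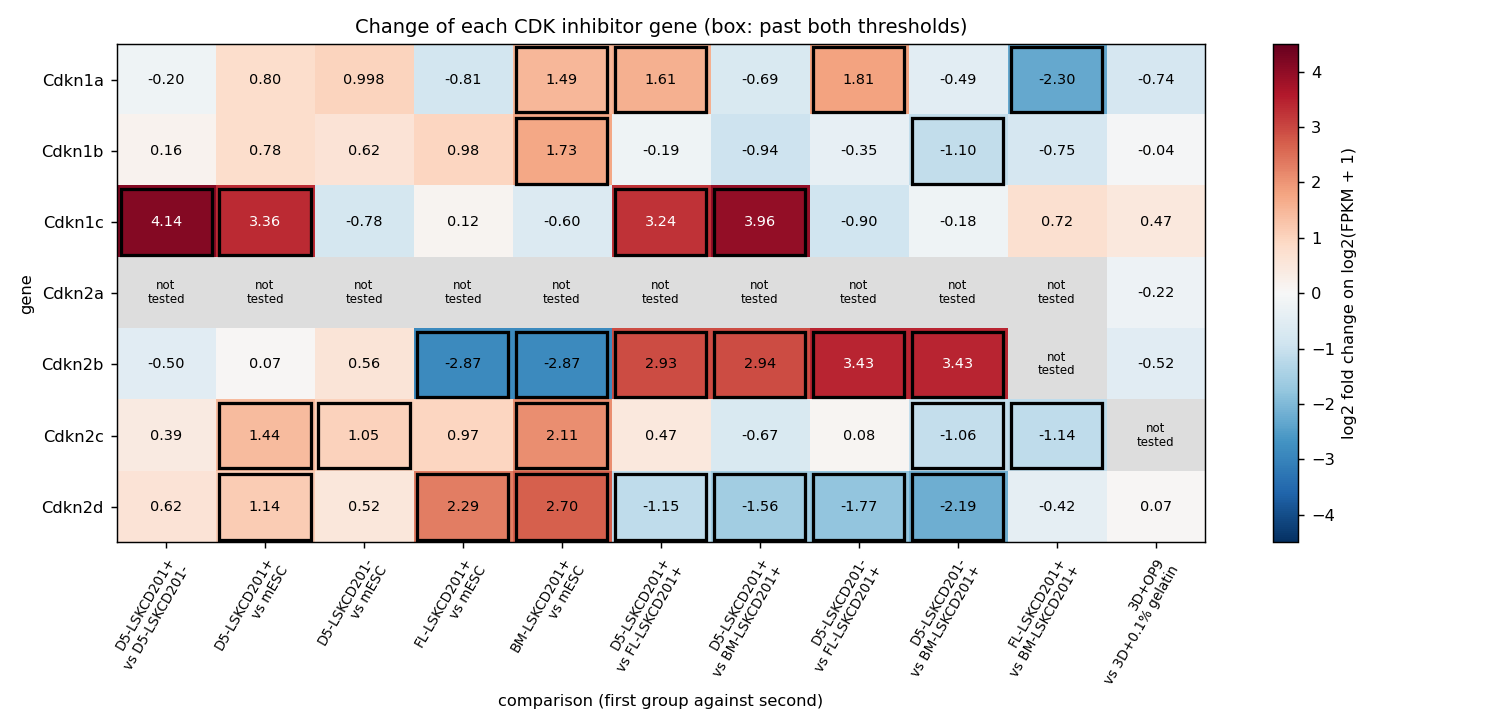
Log2 fold change on log2(FPKM + 1) (colour and number) of each CDK inhibitor gene (rows) in 10 comparisons of sorted cells and the comparison of cocultures (columns), first group against second, n = 3 in each group. Boxes mark genes with an adjusted p under 0.05 and a change of at least 1, and Cdkn1c is boxed in the 4 comparisons that hold D5-LSKCD201+ cells.

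In total cells on day 5, none of the 6 members tested rose or fell in 3D+OP9 against 3D+0.1% gelatin by limma, where 2.62% of all genes did, with 3 members at an unadjusted p under 0.05 (22.9% of all genes) and 1 at an adjusted p under 0.05 (6.88% of all genes). The median of the members was -0.13, beside 0.01 over all genes tested. The member with an adjusted p under 0.05 was Cdkn1a, at 50.1, 44.8 and 41.8 FPKM in 3D+OP9 and 69.9, 81.8 and 79.2 in 3D+0.1% gelatin (log2 fold change -0.74 ± 0.10, adjusted p = 0.0055). Cdkn1c was at 36.9, 44.8 and 38.9 FPKM in 3D+OP9 and 32.1, 31.3 and 23.4 in 3D+0.1% gelatin (0.47 ± 0.14, adjusted p = 0.091). The libraries of both genes did not overlap between the groups, and neither did those of Cdkn2b, at 0.44, 0.63 and 0.81 against 1.06, 1.19 and 1.76 FPKM (-0.52 ± 0.16, adjusted p = 0.10). Such separation was found for 28.7% of all genes tested, and none of these 3 members passed both thresholds. Over the alternatives the difference of Cdkn2b lay between -0.99 and -0.39.

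Cdkn1b was at means of 24.0 and 24.8 FPKM, Cdkn2d at 7.60 and 7.19 and Cdkn2a at 2.73 and 3.36 in 3D+OP9 and 3D+0.1% gelatin, all with overlap. Cdkn2c, at 0.540 ± 0.190 and 0.337 ± 0.125, was under the level for testing. Both tables were normalized separately, and no level is compared between them. In the same comparison Igf2, of the region of Cdkn1c, rose by 2.08 and the p53 target gene Perp fell by 1.23 on the log2 scale. Igf2 lost its call without 3D+OP9 replicate 2 (adjusted p = 0.058) or 3D+0.1% gelatin replicate 3 (adjusted p = 0.054), and Perp without 3D+0.1% gelatin replicate 2 (adjusted p = 0.063). With stroma, the summed FPKM of 10 stromal genes was 74.3 to 85.5 and that of 7 endothelial genes 85.0 to 101, against 44.8 to 55.8 and 9.56 to 21.04 without it. The sum of 6 erythroid genes was 187 to 695 with and 4.26 to 18.4 without stroma. The part of these gene groups, or of any OP9 RNA, in the values above was not tested. The shares of all genes in this comparison depended on single libraries: genes past both thresholds went from 339 to 209 without 3D+0.1% gelatin replicate 2, and those with an adjusted p under 0.05 from 891 to between 300 and 1984 without 1 library.

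**Figure D5:**
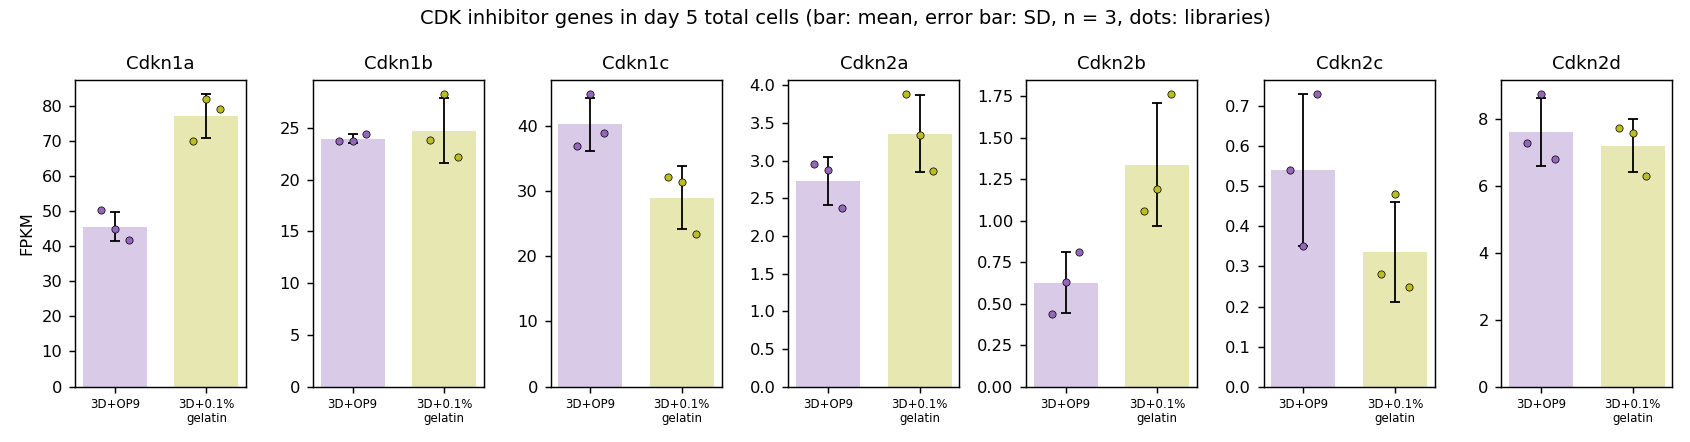
FPKM (vertical axis, linear, own scale for each gene) of the 7 CDK inhibitor genes in day 5 total cells with OP9 or with gelatin (horizontal axis), with bars for the mean, error bars for the SD of 3 libraries and dots for single libraries. The dots of Cdkn1a, Cdkn1c and Cdkn2b do not overlap between the groups, as for 28.7% of all genes tested, and no member passed both thresholds.

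The targets and partners of the inhibitors were read from lists. Of 9 cyclin and CDK genes of G1 and S phase, none rose and 2 fell in D5-LSKCD201+ against D5-LSKCD201- cells, near the 24.7% of all genes that passed both thresholds there. Ccne1, the gene of cyclin E1, went from 94.9 to 16.5 FPKM (-2.45 ± 0.06) and Cdk6 from 7.13 to 1.79 (-1.55 ± 0.16). Cdk4, a target of all INK4 proteins, differed by -0.17 from a level of 519.6 FPKM in the negative population. Ccnd3, the gene of cyclin D3, had 176 ± 12.8 FPKM there against 310 ± 1.17 in the positive one, a difference of 0.82 that stayed below the fold threshold.

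Against FL-LSKCD201+ cells none of the 9 rose and 3 fell in D5-LSKCD201+ (34.7% of all genes): Cdk6 (-2.51), Ccnd2, the gene of cyclin D2 (-2.21), and Ccne1 (-1.42). Against BM-LSKCD201+ cells 4 rose and 2 fell (44.7% of all genes), with a median of 0.93 beside -0.23 over all genes tested. Ccna2, the gene of cyclin A2 of S and G2 phase (3.27), Ccne1 (2.56), Ccnd1 (1.94) and Ccne2 (1.70) rose, and Cdk6 (-3.27) and Ccnd2 (-3.24) fell. In FL-LSKCD201+ against BM-LSKCD201+ cells, where Cdkn1a and Cdkn2c fell, 4 of these 9 genes rose (Ccne1 by 3.98, Ccna2 by 3.47, Ccne2 by 1.96 and Ccnd1 by 1.63) and Ccnd2 fell by 1.02, where 19.1% of all genes passed both thresholds. Ccnd2 was at -0.95 without FL-LSKCD201+ replicate 1, under the fold threshold.

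Of 20 proliferation genes, none rose and 4 fell in D5-LSKCD201+ against D5-LSKCD201- cells: Mybl2 (-2.86), Ccnb1 (-1.46), Mcm7 (-1.39) and Ccnb2 (-1.04). Ccnb2 was under the fold threshold with quantile normalization (-0.98) and without D5-LSKCD201+ replicate 2 (-0.995) or D5-LSKCD201- replicate 2 (-0.95). The count of 4 was below the share of all genes (24.7%). The list's median was -0.73, beside -0.12 over all genes tested. Against BM-LSKCD201+ cells 13 of the 20 rose in D5-LSKCD201+ and none fell (44.7% of all genes), with Plk1 (4.11), Ccnb1 (3.76) and Bub1 (3.29) the largest. In FL-LSKCD201+ against BM-LSKCD201+ cells 15 rose and none fell (19.1% of all genes), among them Ccnb1 (3.29), Birc5 (3.08) and Plk1 (3.04). The summed FPKM of the 20 genes was 3464 to 3490 in mESC, 2967 to 3245 in D5-LSKCD201-, 1973 to 2185 in FL-LSKCD201+, 1792 to 1803 in D5-LSKCD201+ and 729 to 751 in BM-LSKCD201+ cells.

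Of 13 RB and E2F genes, none rose and 2 fell between the day 5 populations, Tfdp2 (-1.35) and E2f8 (-1.05), below the share of all genes (24.7%). E2f8 was under the fold threshold with quantile normalization (-0.90) and without D5-LSKCD201- replicate 1 (-0.92) or replicate 3 (-0.90). Of 14 genes that serve the breakdown of the inhibitors, none rose and 1 fell, also below it: Cdc20 (-1.04), a mitotic activator of the anaphase-promoting complex. Cdc20 was under the fold threshold with quantile normalization (-0.94) and without D5-LSKCD201- replicate 2 (-0.96). Against BM-LSKCD201+ cells 5 of the 14 rose and 2 fell in D5-LSKCD201+ (44.7% of all genes). Skp2, which directs p27 and p57 to degradation, rose by 2.95, from 4.02 ± 0.0828 FPKM in BM-LSKCD201+ to 37.9 ± 1.47 in D5-LSKCD201+ cells. In FL-LSKCD201+ against BM-LSKCD201+ cells 3 rose and 1 fell (19.1% of all genes), with Skp2 up by 1.82 and Cdc20 by 2.38.

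Of 17 Polycomb genes, whose products are known to silence the Cdkn2a and Cdkn2b loci, 1 rose and 4 fell in D5-LSKCD201+ against D5-LSKCD201- cells, near the share of all genes (24.7%). Phc2 rose by 1.28, and Phc1 (-2.74), Cbx7 (-2.34), Eed (-1.58) and Pcgf2 (-1.29) fell. The median was -0.30. Against BM-LSKCD201+ cells 1 rose and 7 fell (44.7% of all genes), and Cbx7, with a mean of 22.8 FPKM there, fell by 3.61 on the log2 scale.

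Of 22 transcription factor and cofactor genes known to act on the inhibitor genes, 21 were tested between the day 5 populations. Of these 5 rose and 2 fell in D5-LSKCD201+ cells, where 24.7% of all genes passed both thresholds, and the list's median was -0.04. Ets1 (3.29), Ets2 (3.00) and Mecom (2.81) rose most, the first of these from 5.75 to 64.7 FPKM, while Mycn (-2.27) and Klf4 (-1.18) fell. Mecom encodes a zinc finger factor needed by hematopoietic stem cells, and the Ets factors act in endothelium and blood.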

How the data were processed

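RNA-seq was performed on 21 mouse libraries. Per the study's methods, TRIzol RNA was made into libraries by the VAHTS mRNA kit, and 150-base paired-end Illumina reads were aligned to GRCm38 with HISAT2 2.0.5 and quantified with StringTie 1.3.3. The authors deposited FPKM per gene and library in 2 tables, which were normalized separately. The processing notes also list Cuffdiff 1.3.0 and mm9, the latter with no stated role. Depth is unknown, and whole reads could not be recovered.

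Here, log2(FPKM + 1) was fitted with limma 3.58.1 (R 4.3.3, trend option, two-sided) for 11 comparisons, each on its own 6 libraries. Genes averaging under 0.5 FPKM were left out. Figures were drawn with matplotlib 3.10.9 in Python 3.11.15. The code was tested on simulated data. Sequences were read from GENCODE M21 and RefSeq tables of GRCm38.

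The members and gene lists were chosen with earlier results of these data known. Genes named were all members, list genes past both thresholds with the largest changes (up to 3 in each direction), any gene of the cyclin and CDK, Cdkn1c region and Cdkn2 neighbour lists, and the genes most like each member by Pearson r; a few items are not reported here. Rrm2b, Sesn2, Pcgf2 and Ccnb2 complete counts of 5 or fewer. Ptprc and Procr were named to check labels. Same-numbered replicates deviated together across genes in FL-LSKCD201+ against BM-LSKCD201+ (r of 0.24, 0.20 and 0.16). In no other comparison was r over 0.1 in every same-numbered pair. Replicates 2 and 3 also deviated together across numbers (r of 0.20 and 0.16), and replicate 1 deviated against both (r from -0.24 to -0.19). The pattern thus sets replicate 1 apart in both groups and is no sign of pairing by number. The labels give no reason for it. Alternatives were a pseudocount of 0.1, no filter, a filter at a mean of 1 FPKM, the replicate number as a block, limma without its trend option, a joint fit of the 5 sorted-cell groups, quantile normalization, calls by adjusted p only, and leaving out each library. For likeness, Spearman's rho and group means were used.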

Additional observations from a re-analysis of the deposited data

How the results depend on the processing

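The rise of Cdkn1c in D5-LSKCD201+ against D5-LSKCD201- cells lay between 4.10 and 4.18 on the log2 scale under all alternatives. The count of members past both thresholds kept within 1.5 times its value except as follows. With the adjusted p alone, beside the share of all genes that passed it, it was 1 in 3D+OP9 against 3D+0.1% gelatin (6.88%), 4 in D5-LSKCD201+ against D5-LSKCD201- (68.3%), 5 in D5-LSKCD201+ (85.5%), 6 in D5-LSKCD201- (54.6%) and 5 in FL-LSKCD201+ (77.6%) against mESC, and 6 in D5-LSKCD201+ (83.4%) and 5 in FL-LSKCD201+ (55.1%) against BM-LSKCD201+. With a pseudocount of 0.1 it was 2 in D5-LSKCD201- and 4 in FL-LSKCD201+ against mESC. With quantile normalization it was 0 in D5-LSKCD201- against mESC, 2 in D5-LSKCD201- against BM-LSKCD201+ and 1 in FL-LSKCD201+ against BM-LSKCD201+; this scaling moved the all-gene median by over 0.1 (log2) in several comparisons, at most from 0.23 to -0.04 in BM-LSKCD201+ against mESC. Leaving out 1 library gave 0 to 2 in D5-LSKCD201- against mESC, 2 to 4 in FL-LSKCD201+ against mESC (4 without mESC replicate 3) and 1 to 2 in FL-LSKCD201+ against BM-LSKCD201+ (1 without FL-LSKCD201+ replicate 2). In D5-LSKCD201- against mESC the count was 2 without D5-LSKCD201- replicate 1 and 0 without replicate 3. In coculture, all genes with an adjusted p under 0.05 went from 891 to 398, 376 and 1984 without 3D+OP9 replicates 1, 2 and 3, and to 724, 300 and 495 without 3D+0.1% gelatin replicates 1, 2 and 3. All genes past both thresholds went from 339 to 209 without 3D+0.1% gelatin replicate 2 and to 531 with a pseudocount of 0.1, while the count of members stayed at 0 in each of these. The cause was not tested.

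Directions that reversed were all of small differences: Cdkn2b in D5-LSKCD201+ against mESC (-0.040 with quantile normalization, and -0.035 to 0.14 without 1 library, lowest without mESC replicate 3), Cdkn1b in D5-LSKCD201+ against FL-LSKCD201+ (0.021 with quantile normalization), Cdkn2c in D5-LSKCD201- against FL-LSKCD201+ (-0.14 to 0.29 without 1 library, lowest without FL-LSKCD201+ replicate 2), and in coculture Cdkn1b (-0.11 to 0.058 without 1 library, highest without 3D+0.1% gelatin replicate 2) and Cdkn2d (-0.024 to 0.14 without 1 library, below 0 without 3D+OP9 replicate 2 or 3D+0.1% gelatin replicate 3). With the replicate number as a block the count of members was 1 in D5-LSKCD201+ against D5-LSKCD201- and 2 in FL-LSKCD201+ against BM-LSKCD201+, and the block changed no call. Of the 8 genes most like Cdkn1c, 2 were shared with the list by Spearman's rho and 5 with that by group means. Of the 3 genes most like each other member, 0 (Cdkn1b, Cdkn2b and Cdkn2d) or 1 (Cdkn1a and Cdkn2c) were shared by Spearman's rho, and 0 (Cdkn2c) or 1 by group means. Without counts, no precision can be given for single FPKM, and levels under 1 FPKM are the least certain.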
